A study of Mus musculus with 9 samples.

Results

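Lysosomal genes were followed in mouse embryonic stem cells that had or had not been transfected with siRNA by a cationic lipid. The 41 genes were taken from a list of lysosomal hydrolases, their activator proteins, lysosomal membrane proteins and channels, the transcription factors Tfeb and Tfe3 and the autophagy receptor Sqstm1. All 41 symbols were found among the 16636 genes of the count table. RNA was measured in E14 cells, an established mouse embryonic stem cell line, held on fibronectin in the naive state with LIF, the MEK inhibitor PD0325901 and the GSK3 inhibitor CHIR99021. There were 3 groups of 3 libraries: untreated cells, siLuc cells, which received an siRNA to luciferase as the control, and siStag3 cells, which received one to Stag3, a cohesin subunit gene. The labels give the genotype as wildtype for the untreated samples only, and as Stag3 knockdown for the siStag3 samples. The siRNA groups were collected 48 hours into the knockdown, and each of 2 transfections delivered 50 pmol with Lipofectamine RNAiMAX, with a change of medium between them. A group with lipid and no siRNA was not analysed here, so lipid, siRNA and the handling of the plates cannot be told apart.

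Lysosomes are acidic organelles in which hydrolases break down proteins, glycans and lipids delivered by endocytosis and autophagy. TFEB and TFE3 are helix-loop-helix factors that bind an E-box at many lysosomal gene promoters. They are held in the cytosol by mTORC1, which is recruited to the lysosome by the Rag GTPases. In naive embryonic stem cells, nuclear TFE3 is known for sustaining self-renewal, and its exclusion from the nucleus for accompanying the exit from this state. Cationic lipid complexes are known to enter cells largely by endocytosis.

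The column names placed 2 libraries of each group in Set 1 (experiments 1 and 3) and 1 in Set 3, and the labels did not say what a set is. The Set 3 library was experiment 5 in untreated and siStag3 cells but experiment 1 in siLuc cells, so values for siLuc within Set 3 compare different experiments. Library totals were 29332436 to 44527534 counts, and the first principal component (41.1% of the variance) placed the Set 1 libraries at -20.46 to -2.70 and the Set 3 libraries at 17.09 to 39.87. The siStag3 library of Set 3 lay furthest out, and calls in transfected cells that turn on it are also given without it. The set was therefore a term in the fit, which lowered the biological coefficient of variation from 14.6% to 7.62%. Stag3 itself (ENSMUSG00000036928) was at 13.5 to 15.6 CPM (counts scaled to library size) in siStag3 and 22.5 to 26.7 CPM in siLuc (log2 fold change -0.71, SE 0.0722, adjusted p = 0.00205 by edgeR's quasi-likelihood test). Naive stem cell markers summed to 4690 to 5010 CPM in untreated, 4580 to 4950 CPM in siLuc and 4620 to 5030 CPM in siStag3 cells. Of these 9 markers Dppa3 was lower in transfected cells, at 44 ± 6.16 CPM in untreated, 34.7 ± 2.35 in siLuc and 24.2 ± 2.51 in siStag3 (log2 fold change -0.60, SE 0.0856, adjusted p = 0.00182 by edgeR). It passed in siStag3 alone (-0.86, SE 0.102, adjusted p = 0.000781 by edgeR) but not in siLuc alone (-0.34, SE 0.1, adjusted p = 0.0659). The difference between the siRNA groups was -0.52 (SE 0.103, adjusted p = 0.168 by edgeR). Macrophage markers, of a cell type rich in lysosomes, summed to at most 2.04 CPM with 4 of 7 in the table, and primitive endoderm markers summed to 351 to 369 CPM in untreated, 323 to 345 CPM in siLuc and 330 to 352 CPM in siStag3. Of these 11 markers the transcription factors Gata4, Gata6, Sox17 and Sox7 averaged at most 0.313 CPM, while Sparc at 280 CPM in untreated cells and Lama1 carried the sum. Lama1 was lower in transfected cells, at 74.1 ± 13.7 CPM in untreated, 62.1 ± 7.99 in siLuc and 59.9 ± 9.76 in siStag3 (log2 fold change -0.28, SE 0.0649, adjusted p = 0.0267 by edgeR). It passed in neither siRNA group alone (adjusted p = 0.0717 in siLuc and 0.0501 in siStag3 by edgeR). Mitochondrially encoded genes took 3.48 to 5.33% of the counts in untreated libraries, 5.98 to 6.73% in siLuc and 4.1 to 6.78% in siStag3. The part of these markers and of the mitochondrial share in the results below was not tested.

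Lysosomal transcripts spanned a wide range of abundance in untreated cells. Per length of the longest annotated transcript, the membrane glycoprotein Lamp1 led at 182 RPKM (the CPM divided by the length in kilobases), followed by the tetraspanin Cd63 at 140 RPKM, the aspartic protease Ctsd at 93.8 and Psap, the precursor of the saposins, at 87.9. Tfe3 stood at 29.4 and Tfeb at 21.8 on the same scale. At the other end were the heparan sulfate enzymes Sgsh at 0.616 and Naglu at 0.24, the sulfatase Arsb at 0.211 and the cysteine protease Ctsh at 0.0798. Ctsh had 0 to 6 counts in any library and did not pass the filter on low counts, so 40 of the 41 genes were tested. It was at 0 in 2 siStag3 libraries, where a count of 0 allows up to 0.0821 and 0.0915 CPM. These levels depend on which transcript the cells use, which was not measured.

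Promoters of the 41 genes were read for the E-box that TFEB and TFE3 bind. RefSeq promoters (GRCm38.p6, 250 bases before to 50 after each start) were matched for 36 of the 41 genes, and not for Laptm4b, Ctsb, Ctsh, Galns and Asah1. The palindrome CACGTG was present in 12 of 42 promoters of these genes (28.6%), against 7.15% of all 32851 promoters of the same length. The longer palindrome TCACGTGA, which contains it, was present in 5 of the 42 (11.9%), those of Mcoln1, Cln3, Ctsa, Ctsd and Gla, against 0.974% of all promoters. Each stretch below is written 5′ to 3′ on its gene's strand, with TCACGTGA in capitals. They are shown because some genes that carry these letters passed the test below and others did not.
Mcoln1, chr8:3500447-3500506, plus strand: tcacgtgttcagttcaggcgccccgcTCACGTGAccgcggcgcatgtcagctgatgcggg
Cln3, chr7:126583325-126583384, minus strand: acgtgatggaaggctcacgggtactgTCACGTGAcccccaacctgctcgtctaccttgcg
Ctsa, chr2:164833734-164833772, plus strand: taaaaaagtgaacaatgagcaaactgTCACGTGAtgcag
Ctsd, chr7:142387893-142387952, minus strand: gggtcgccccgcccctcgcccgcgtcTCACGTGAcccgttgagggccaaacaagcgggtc
Gla, chrX:134601167-134601226, minus strand: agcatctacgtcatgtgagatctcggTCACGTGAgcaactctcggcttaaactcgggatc
The CACGTG core began 45 bases before the annotated start of Mcoln1, 121 before that of Cln3, 12 before that of Ctsa and 98 before that of Ctsd. A match of letters is a description of the window and no evidence that a factor binds there.

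Transfected cells, taken as the mean of siLuc and siStag3, differed from untreated cells at 7 lysosomal genes. Manba and Laptm4b were higher, and Mcoln1, Ctsa, Ctsc, Hexa and Fuca1 were lower. The highest was Manba at 133% and the lowest Ctsc at 79.7% of the untreated level. The 7 calls were 17.5% of the 40 genes tested, where 6.04% of all 14246 genes were called at an adjusted p under 0.05 (2.3% higher and 3.74% lower). With libraries scaled by total count alone the split became 1 higher and 6 lower, since Laptm4b missed the threshold (adjusted p = 0.0512) and Ctsb passed it. The median log2 fold change of the 40 genes was -0.07, with a range of -0.37 to 0.41 and 11 positive values, against a median of -0.01 and 48.7% positive over all genes. Without the set in the fit no lysosomal gene passed (10 of all genes did, 0.0702%), and 4 had an unadjusted p under 0.05 (Ctsc, Gaa, Manba and Fuca1), against 9.09% of all genes. All comparisons with untreated cells share the same 3 untreated libraries, and p-values measure only the spread between these 9 samples, described as biological replicates. In bulk RNA, fewer cells of a type and less RNA per cell cannot be told apart.

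**Figure D1:**
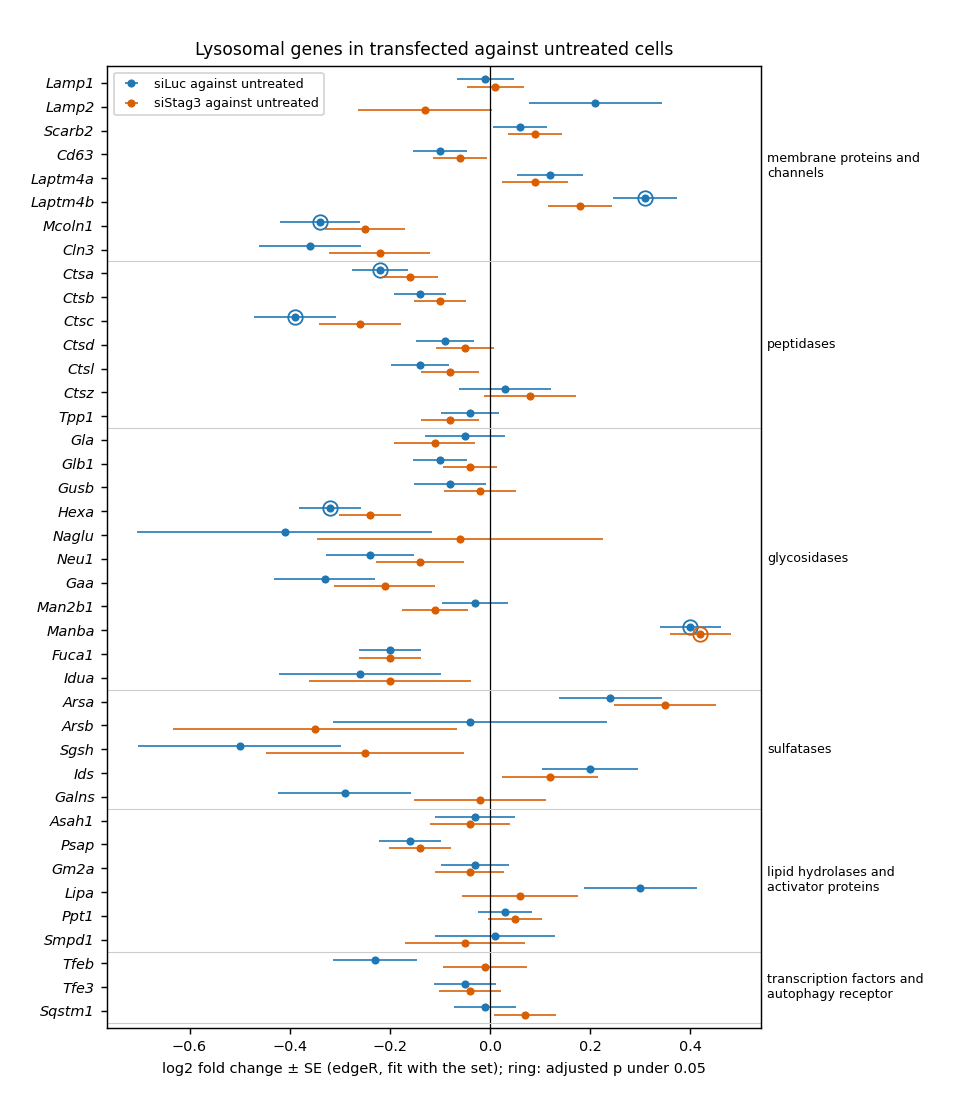
Log2 fold change (x axis) of the 40 tested lysosomal genes (rows, grouped by role) in siLuc and in siStag3 cells against untreated cells, with points for the fitted value, bars for its SE and rings for an adjusted p under 0.05. Manba is ringed in both comparisons, at 0.40 and 0.42, while most glycosidases and peptidases lie left of zero.

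Glycosidases, which strip sugars one by one from glycoproteins and glycolipids, held the largest change. Manba (ENSMUSG00000028164), the beta-mannosidase that acts late in N-glycan breakdown, was at 32.9, 32.9 and 30.7 CPM in the untreated libraries (Set 3 last, here and below), 43.6, 43.7 and 39.7 CPM in siLuc and 46.1, 45 and 38.4 CPM in siStag3. Every transfected library was above every untreated one. Its log2 fold change was 0.41 (SE 0.0533, 95% interval 0.29 to 0.52, adjusted p = 0.000789), and it was 0.44 within Set 1 and 0.35 within Set 3. It was the only member with an adjusted p under 0.05 in each siRNA group alone, at 0.40 in siLuc (SE 0.0608, adjusted p = 0.0037) and 0.42 in siStag3 (SE 0.0608, adjusted p = 0.00234).

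Hexa (ENSMUSG00000025232), which encodes the alpha subunit of the beta-hexosaminidase that degrades ganglioside, moved the other way. It was at 96.1, 89 and 127 CPM in untreated, 70.8, 73.7 and 108 CPM in siLuc and 73.6, 75 and 120 CPM in siStag3 cells. The groups overlapped across sets but not within a set, since each Set 3 library was well above its Set 1 partners. The log2 fold change was -0.28 (SE 0.0531, adjusted p = 0.00981), -0.34 within Set 1 and -0.16 within Set 3. Fuca1 (ENSMUSG00000028673), the alpha-L-fucosidase, was at 36.2, 36.5 and 39 CPM in untreated, 31.6, 32.2 and 33.1 CPM in siLuc and 30.7, 31.4 and 35.1 CPM in siStag3. All transfected libraries lay below the untreated ones (log2 fold change -0.20, SE 0.0526, adjusted p = 0.0393), by -0.21 within Set 1 and -0.19 within Set 3. Leaving out 1 library at a time, Fuca1 lost the threshold in 8 of 9 fits. The other 8 glycosidases did not pass. Apart from Manba, all 10 glycosidases had negative values, and the median of the 11 was -0.19, which became -0.09 with a correction for GC content that also left Man2b1 at 0.01. Gaa, the acid alpha-glucosidase that degrades glycogen, was at 70.3 ± 8.27 CPM (SD, n = 3) in untreated, 56.1 ± 1.88 in siLuc and 61.3 ± 12.1 in siStag3, with a log2 fold change of -0.27 (SE 0.0863, adjusted p = 0.0848 by edgeR). Without the siStag3 library of Set 3 it passed, at -0.34 (SE 0.0657, adjusted p = 0.0034 by edgeR), as did the sialidase Neu1 at -0.22 (adjusted p = 0.0346). That fit called 22.9% of all genes, against 6.04% with all libraries. Leaving out any other single library gave fewer lysosomal calls than the fit with all libraries.

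Among the peptidases, which degrade proteins, 2 of 7 tested genes fell, and 6 of 7 values were negative (median -0.11). Ctsc (ENSMUSG00000030560), cathepsin C, which removes dipeptides and activates serine proteases, was at 26.1, 27.9 and 25.9 CPM in untreated, 19.5, 23.2 and 18.2 CPM in siLuc and 22.9, 24.5 and 19.5 CPM in siStag3 cells. All transfected libraries were below all untreated ones. The log2 fold change was -0.33 (SE 0.0697, adjusted p = 0.0167), and it was -0.27 in Set 1 and -0.45 in Set 3. Ctsa (ENSMUSG00000017760), the carboxypeptidase that also protects beta-galactosidase and neuraminidase in a complex, was at 155, 150 and 180 CPM in untreated, 132, 128 and 157 CPM in siLuc and 130, 132 and 175 CPM in siStag3. Within each set its transfected libraries were lower, and its log2 fold change was -0.19 (SE 0.0483, adjusted p = 0.0386). Leaving out 1 library at a time, Ctsa lost the threshold in 8 of 9 fits. Exons of Ctsa overlap those of Pltp on the opposite strand, and how strand was used in counting is not given in the sources used here. Its partners in that complex, Glb1 at -0.07 (adjusted p = 0.359) and Neu1 at -0.19 (adjusted p = 0.136), did not pass. Cathepsins D, B and L did not pass in this fit. Ctsd was at 199 ± 6 CPM in untreated, 187 ± 2.8 in siLuc and 193 ± 15.2 in siStag3 (log2 fold change -0.07, SE 0.0496, adjusted p = 0.373 by edgeR). Ctsb and Ctsl were at -0.12 and -0.11. With the GC correction both passed, Ctsb at -0.14 (adjusted p = 0.0157 by edgeR) and Ctsl at -0.20 (adjusted p = 0.00145 by edgeR), where 9.63% of all genes did. Ctsd was then at 0.04. Without the siStag3 library of Set 3, Ctsb passed at -0.13 (adjusted p = 0.0395), where 22.9% of all genes did.

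Membrane proteins and channels included 1 gene that rose and 1 that fell, with 4 of 8 values positive and a median of 0.02 (-0.04 with the GC correction). Laptm4b (ENSMUSG00000022257), a multispanning protein of the lysosomal membrane, was at 32.1, 33.2 and 44.9 CPM in untreated, 43.3, 40.8 and 52.1 CPM in siLuc and 38.2, 36 and 50.3 CPM in siStag3 cells. Transfected libraries were higher within each set, with a log2 fold change of 0.25 (SE 0.0556, adjusted p = 0.0225), 0.27 in Set 1 and 0.19 in Set 3. Mcoln1 (ENSMUSG00000004567), the calcium release channel TRPML1 and a known TFEB target, was at 33.4, 30.2 and 38.1 CPM in untreated, 23.7, 24.8 and 32.3 CPM in siLuc and 24.1, 24.9 and 37.5 CPM in siStag3. The log2 fold change was -0.30 (SE 0.0682, adjusted p = 0.0239). In Set 3 the siStag3 library differed from the untreated one by only -0.02, against -0.37 in Set 1. Lamp1, the main structural glycoprotein of the lysosomal membrane, was at 405 ± 23.3 CPM in untreated, 402 ± 16.8 in siLuc and 407 ± 5.94 in siStag3, and its log2 fold change of -0.00 had a 95% interval of -0.11 to 0.10 (adjusted p = 0.99 by edgeR).

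**Figure D2:**
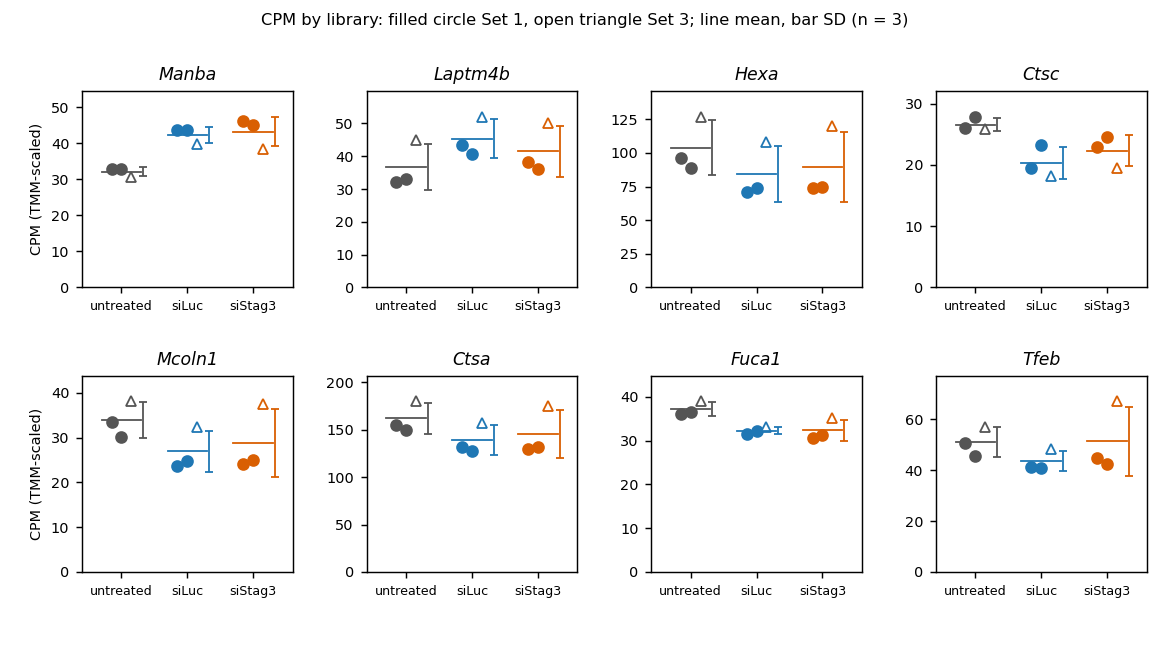
CPM (y axis, from 0) of 8 lysosomal genes in each library of the 3 groups (x axis), with filled circles for Set 1, open triangles for Set 3, lines for group means and bars for the SD (n = 3). Transfected libraries of Manba lie above all untreated ones, those of Ctsc and Fuca1 below, and the Set 3 libraries of Hexa, Mcoln1 and Laptm4b lie above their Set 1 partners in every group.

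With all libraries, none of the sulfatases, lipid hydrolases and activator proteins, or transcription factors passed in transfected cells. Without the siStag3 library of Set 3, 22.9% of all genes were called, against 6.04% with all libraries. In that fit 1 gene of each of these roles passed: Arsa at 0.29 (SE 0.0945, adjusted p = 0.038), Psap at -0.18 (SE 0.0492, adjusted p = 0.0157) and Tfeb at -0.18 (SE 0.0542, adjusted p = 0.0238). In all libraries, Arsa, which acts on sulfatide, was at 8.25, 6.74 and 15.2 CPM in untreated, 8.02, 9.71 and 17.7 CPM in siLuc and 10, 8.95 and 19.7 CPM in siStag3 cells, with a log2 fold change of 0.29 (SE 0.0894, adjusted p = 0.0655). Psap was at -0.15 (adjusted p = 0.0955), and the other lipid genes ranged up to 0.18 for Lipa, the acid lipase. Tfeb (ENSMUSG00000023990) was at 50.6, 45.4 and 56.9 CPM in untreated, 41.4, 41 and 48.1 CPM in siLuc and 44.6, 42.4 and 67 CPM in siStag3. The siStag3 library of Set 3 stood above all the others, and the log2 fold change was -0.12 (SE 0.0725, adjusted p = 0.31). Tfe3 was at 99.8 ± 4.59 CPM in untreated, 96.1 ± 3.51 in siLuc and 96.9 ± 8.9 in siStag3, and its log2 fold change was -0.05 (SE 0.0542, adjusted p = 0.59 by edgeR). Sqstm1, which links ubiquitinated cargo to autophagosomes and is also a target of other stress pathways, was at 197 ± 12.2 CPM in untreated, 195 ± 3.4 in siLuc and 207 ± 20.8 in siStag3, with a log2 fold change of 0.03 (SE 0.0538, adjusted p = 0.738 by edgeR). RNA levels do not measure the location of TFEB or TFE3 in the cell, which controls their activity.

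Of the 5 genes with TCACGTGA in their promoter, Mcoln1 and Ctsa passed, at -0.30 and -0.19. Cln3, a membrane protein lost in a neuronal ceroid lipofuscinosis, was at -0.29 (SE 0.0868, adjusted p = 0.0648), Gla at -0.08 (adjusted p = 0.48) and Ctsd at -0.07 (adjusted p = 0.373). Without the siStag3 library of Set 3, where 22.9% of all genes were called, Cln3 passed at -0.36 (adjusted p = 0.00371). With all libraries, all 5 values were below zero, as were 29 of the 40 genes, and with the GC correction Ctsd was at 0.04. Of the other 7 genes with CACGTG, Arsa was at 0.29, and Lamp1, Ctsl, Glb1, Naglu, Gaa and Sgsh ranged from -0.37 for Sgsh to -0.00 for Lamp1.

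In siLuc cells alone, 6 of 40 lysosomal genes passed against untreated cells (15%), where 4.2% of all genes did (1.65% higher and 2.55% lower). Laptm4b at 0.31 (SE 0.0637, adjusted p = 0.0197) and Manba were higher. Ctsc at -0.39 (SE 0.0818, adjusted p = 0.0217), Mcoln1 at -0.34 (SE 0.0798, adjusted p = 0.0341), Hexa at -0.32 (SE 0.0621, adjusted p = 0.0175) and Ctsa at -0.22 (SE 0.0562, adjusted p = 0.0466) were lower. With set and experiment together as a block, only Manba passed in siLuc cells (adjusted p = 0.0425, all genes 0.604%), and Laptm4b (0.052), Ctsc (0.0957), Hexa (0.112), Mcoln1 (0.206) and Ctsa (0.253) did not. The siLuc library of Set 3 was alone in its block, so these siLuc values rest on the Set 1 libraries of siLuc. In transfected cells the same block left Manba, Laptm4b, Ctsc and Hexa (all genes 2.66%), while the adjusted p was 0.0702 for Mcoln1, 0.0981 for Ctsa and 0.101 for Fuca1. In siStag3 cells alone, Manba was the only call, 2.5% of the 40 genes against 2.53% of all genes (1.07% higher). The values there were 0.18 for Laptm4b (adjusted p = 0.172), -0.26 for Ctsc (adjusted p = 0.117), -0.25 for Mcoln1 (adjusted p = 0.117), -0.24 for Hexa (adjusted p = 0.0614) and -0.16 for Ctsa (adjusted p = 0.165). Left without the siStag3 library of Set 3, the siStag3 comparison called 7 lysosomal genes (all genes 11%) and the transfected comparison 14, with 3 higher and 11 lower (all genes 22.9%).

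The difference between the siRNA groups was tested directly, and no lysosomal gene passed in siStag3 against siLuc cells (0.0281% of all genes did in edgeR, 0.154% in DESeq2, which called no lysosomal gene either). Unadjusted p-values under 0.05 were found for 3 of 40 genes, Lamp2, Laptm4b and Tfeb, against 7.88% of all genes. Values for the 40 genes ran from -0.34 to 0.34 with a median of 0.04, and 28 of them were positive, against a median of -0.00 and 48.3% positive over all genes. With the GC correction the median was 0.02 and 25 were positive. Spearman correlations of these values with GC content were 0.546 over the 40 genes and 0.385 over all genes before that correction. For Manba the difference was 0.03 (95% interval -0.10 to 0.16), for Hexa 0.08 (-0.06 to 0.21) and for Laptm4b -0.14 (-0.27 to -0.00). Lamp2, a membrane glycoprotein needed for autophagosome fusion, had the lowest value: it was at 128, 123 and 133 CPM in siLuc and 109, 121 and 77.6 CPM in siStag3 cells. The untreated libraries, at 106, 132 and 96.4 CPM, overlapped both groups. The siStag3 library of Set 3, at 77.6 CPM, lay below all the others. The log2 fold change of -0.34 (SE 0.134) had an adjusted p of 0.592 by edgeR.

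More lysosomal genes passed between the sets than between treatments. In Set 3 against Set 1, 21 of 40 genes passed (52.5%), where 42.7% of all genes did, and 19 of them were higher in Set 3 (21.4% of all genes were higher and 21.2% lower). The median over the 40 genes was 0.18, against 0.00 over all genes. Arsa was the most different, at 1.02 (SE 0.0847, adjusted p = 2.28e-06), followed by Idua at 0.68, Lipa at 0.63, Neu1 at 0.59 and Hexa at 0.58 (SE 0.0527, adjusted p = 4.94e-06). In this fit, which had no correction for GC content, higher calls came from each role: 4 membrane proteins, 4 peptidases, 5 glycosidases, 1 sulfatase, 4 lipid genes and Tfeb at 0.37 (SE 0.0721, adjusted p = 0.00131). Manba at -0.16 (SE 0.0528, adjusted p = 0.0259) and Ids, which degrades dermatan and heparan sulfate, at -0.27 were lower in Set 3. With a correction for GC content 22 genes passed (all genes 41.5%), 19 of them higher, and the median was 0.12. Tfeb at 0.10 (adjusted p = 0.0543 by edgeR) and Ids at -0.07 (adjusted p = 0.473 by edgeR) then did not pass. The lower calls were Manba at -0.11, Ctsd at -0.09 and Tfe3 at -0.09. The 40 genes and Ctsh together took 0.314, 0.31 and 0.349% of the counts in the untreated libraries, 0.285, 0.286 and 0.324% in siLuc and 0.283, 0.286 and 0.347% in siStag3. In Set 1 both siRNA groups were below the untreated group, and in Set 3 the siStag3 library was level with the untreated one.

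**Figure D3:**
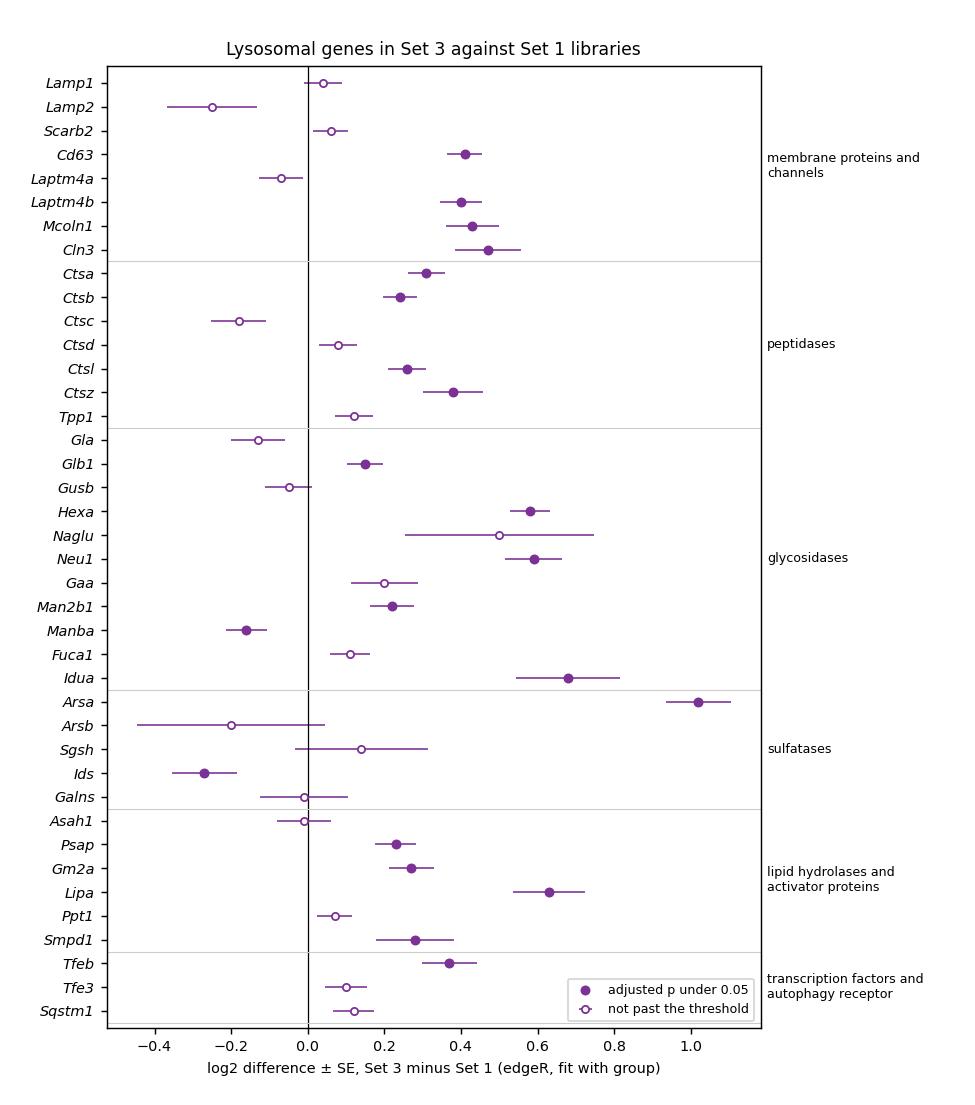
Log2 difference between Set 3 and Set 1 (x axis, Set 3 minus Set 1) for the 40 tested lysosomal genes (rows, grouped by role), with points for the fitted value, filled where the adjusted p is under 0.05, and bars for the SE. The 21 filled points include 19 right of zero, Arsa furthest at 1.02, with Manba and Ids to the left.

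Whether the transfection difference itself varied between the sets was also tested, with 3 residual degrees of freedom. No lysosomal gene passed (0.0211% of all genes did in edgeR, 0.0281% in DESeq2, which called no lysosomal gene), and 3 had an unadjusted p under 0.05: Mcoln1, Cln3 and Neu1 (all genes 3.6%). Mcoln1 was at -0.38 within Set 1 and -0.13 within Set 3, a difference of 0.25 (SE 0.111, adjusted p = 0.996). Counted by library within each set, 4 genes had all transfected libraries above the untreated ones in both sets, namely Scarb2, Laptm4b, Manba and Lipa (10%, against 8.84% of all genes). In 7 genes all were below, namely Mcoln1, Ctsa, Ctsb, Ctsc, Hexa, Fuca1 and Psap (17.5%, against 10.6% of all genes). Over all 9 libraries only Manba stood wholly above (all genes 2.16%), and Ctsc and Fuca1 wholly below (all genes 2.59%).

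GC content moved with these differences. Over 14226 genes, the log2 fold change in transfected against untreated cells had a Spearman correlation of -0.436 with transcript GC content, and over the 40 lysosomal genes -0.367. For Set 3 against Set 1 the values were 0.492 and 0.505. These describe genes of the same 9 libraries, not independent samples. The lysosomal genes had a median GC content of 52.8% (38.7% for Lamp2 to 63.2% for Tfeb), against 50% for all genes. With a correction for GC content in each library, 12 lysosomal genes passed in transfected cells (all genes 9.63%, 4.45% higher and 5.18% lower), and the correlation over the 40 genes was 0.136. Manba at 0.40 (SE 0.0441, adjusted p = 5e-06), Laptm4b at 0.23 and Arsa at 0.40 (SE 0.0773, adjusted p = 0.00169) were then higher. Mcoln1 at -0.19 (SE 0.0513, adjusted p = 0.0233), Hexa at -0.19 (adjusted p = 0.00364), Fuca1 at -0.15 and Ctsc at -0.45 (SE 0.0631, adjusted p = 0.000115) were lower, as were Cln3, Lamp2, Ctsb, Ctsl and Asah1 at -0.26 to -0.14. Ctsa no longer passed, at -0.11 (adjusted p = 0.0536). Lamp2 then differed between siStag3 and siLuc cells, at -0.22 (SE 0.0448, adjusted p = 0.0236; all genes 0.428%), and in siStag3 against untreated cells Manba, Arsa, Hexa, Ctsc and Lamp2 passed (all genes 6.77%). In transfected cells Tfeb, with the highest GC content, moved from -0.12 to 0.03, and Lamp2, with the lowest, from 0.04 to -0.14.

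**Figure D4:**
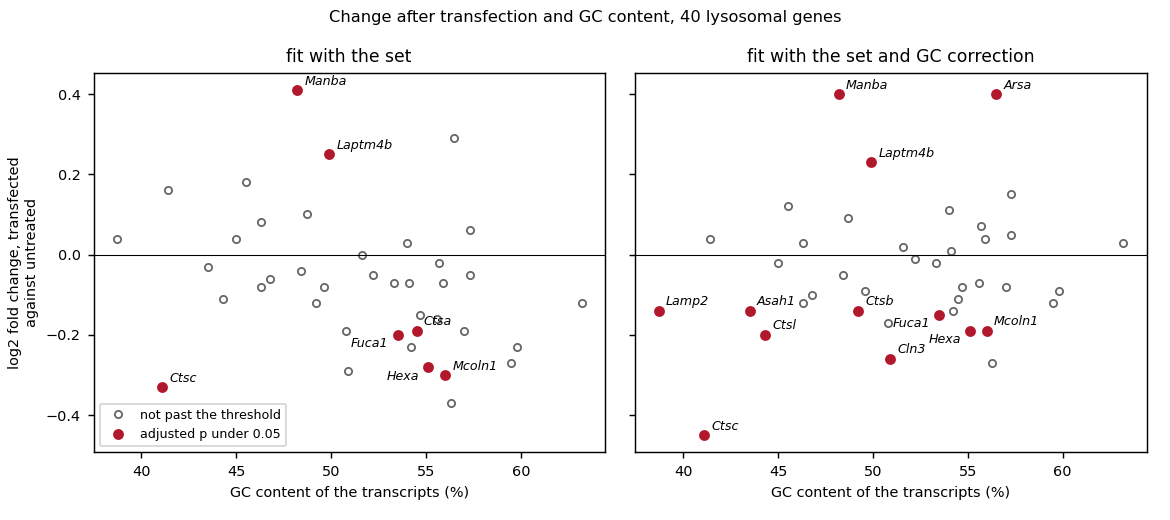
Log2 fold change in transfected against untreated cells (y axis) and transcript GC content in percent (x axis) for the 40 tested lysosomal genes, in the fit with the set (left) and with the set and a GC correction (right), with filled points for an adjusted p under 0.05. Manba, Laptm4b, Hexa, Mcoln1, Fuca1 and Ctsc are filled in both panels, Ctsa on the left alone, and Arsa, Cln3, Lamp2, Ctsb, Ctsl and Asah1 on the right alone.

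Few other genes that build, acidify and supply the lysosome passed in transfected cells in the fit without a GC correction. Their counts stand beside 3.74% of all genes called lower and 2.3% called higher. Of 17 subunits of the V-ATPase, the proton pump that acidifies the lumen, only Atp6v0b fell in transfected cells (-0.25, SE 0.0508, adjusted p = 0.0132), and the median was 0.03 (-0.03 with the GC correction). Of 14 genes for mannose 6-phosphate tagging and sorting, which route hydrolases to the lysosome, only the receptor Igf2r fell. It was at 149, 124 and 135 CPM in untreated, 115, 123 and 109 CPM in siLuc and 109, 104 and 101 CPM in siStag3 cells (log2 fold change -0.30, SE 0.0595, adjusted p = 0.0107), and it also passed in siStag3 cells alone (-0.38, SE 0.0696, adjusted p = 0.0111). Among 31 other lysosomal proteins the cholesterol carrier Npc2 fell (-0.19, SE 0.0455, adjusted p = 0.0264) and none rose. Their median was -0.11, with 5 of 31 values positive. With the GC correction 5 of the 31 were called lower and none higher, and the median was -0.07. Of the V-ATPase and the sorting genes 1 each was then called lower. In that fit 5.18% of all genes were lower and 4.45% higher. These lists were assembled with earlier results of these data known.

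Autophagy, lysosomal signalling and damage genes gave 1 or 2 calls per list in transfected cells, again beside 3.74% of all genes lower and 2.3% higher. Of 28 autophagy genes, Atg4b, a protease that processes LC3-family proteins, fell (-0.22, SE 0.0595, adjusted p = 0.0422). Of 19 tested genes of the Rag GTPases and the control of TFEB and TFE3, Rragb rose (0.32, SE 0.0568, adjusted p = 0.0058). Rragd, a known TFEB target, passed in siLuc cells alone, at 227, 230 and 203 CPM against 198, 193 and 170 CPM in untreated and 190, 187 and 155 CPM in siStag3 cells (0.24, SE 0.0518, adjusted p = 0.0243). Its difference between siStag3 and siLuc was -0.32 (SE 0.0519, adjusted p = 0.0746). In siLuc against untreated cells 1.65% of all genes were called higher. Of 15 tested genes of the response to lysosomal damage, 2 rose, both of them galectins, which bind exposed luminal glycans. In siLuc cells alone no gene of this list passed, and in siStag3 cells alone only Lgals3 did (all genes 1.07% higher). Lgals9 went from 1.63 ± 0.526 CPM in untreated to 2.19 ± 0.611 in siLuc and 2.43 ± 0.439 in siStag3 (0.53, SE 0.144, adjusted p = 0.047 by edgeR), and Lgals3 from 14.7 ± 2.85 CPM to 16.3 ± 3.73 and 18.5 ± 5.32 (0.24, SE 0.0653, adjusted p = 0.0495 by edgeR). The other 13 did not pass, and the other galectins on the list, Lgals1 and Lgals8, were not called. With the GC correction 4 of the 28 autophagy genes were called lower in transfected cells and none higher. Of the Rag and TFEB control genes 1 was then higher, and of the damage genes 3 were, with none lower. In that fit 5.18% of all genes were lower and 4.45% higher.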

How the data were processed

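RNA from 9 libraries of E14 cells was sequenced by the authors from KAPA mRNA HyperPrep libraries. The deposited values are whole-number counts per gene. The submitters' processing notes name FastQC, Salmon, DESeq2 and GRCm39. The step that used each, the annotation, the strand setting and any rounding of estimates are not given in the sources used here. No gene in the deposited table sums to under 9 counts. The column names give group, set and experiment but no replicate number, so columns were assigned to groups only.

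Counts were fitted with edgeR 4.0.16 in R 4.3.3 (filterByExpr, TMM, robust quasi-likelihood, group plus set over all 9 libraries), with Benjamini-Hochberg adjustment over 14246 genes and a threshold of 0.05. CPM are TMM-scaled. Standard errors were derived from the quasi-likelihood F statistics. DESeq2 1.42.0, other scalings and filters, no set, a set-by-experiment block, Set 1 alone, a GC correction in 20 bins and leaving out each library were the alternatives. GC content and length came from the longest GENCODE M21 transcript. Exons of 12 of the 41 genes overlap another gene's exons. The fits were tested on simulated counts. Genes were named by rule: those past the threshold, plus Lamp1, Ctsd, Mcoln1, Sqstm1, Tfeb and Tfe3; Arsa, Gaa, Cln3, Psap, Neu1, Ctsb, Lamp2, Lipa, Dppa3, Lama1 and the genes listed by range or set difference were added after their values were seen. Fibroblast markers summed to at most 2.86 CPM. Members, lists and the set term were chosen with earlier results of these data known. The result of 1 gene among the other lysosomal proteins is not reported here.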

Additional observations from a re-analysis of the deposited data

How the results depend on the processing

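No paired analysis was possible because the titles' replicate numbers do not appear in the column names, and the set and experiment given there were fitted as a block in their place. Without the set in the fit, the counts of lysosomal calls were 0 in transfected, 0 in siLuc and 0 in siStag3 against untreated cells (all genes 0.0702%, 0.00702% and 0.014%). With the GC correction they were 12, 10 and 5 (all genes 9.63%, 7.01% and 6.77%), and 1 for siStag3 against siLuc (all genes 0.428%). With a set-by-experiment block they were 4 in transfected cells (all genes 2.66%), losing Mcoln1, Ctsa and Fuca1, and 1 in siLuc cells (all genes 0.604%), losing all but Manba. The siLuc library of Set 3 was alone in its block there. Fitting only the groups compared gave 10 in siLuc (all genes 12.8%). DESeq2 gave 2 in siStag3 (all genes 2.91%), and Set 1 alone gave 5 in siStag3 (all genes 6.62%), with a median of -0.09. Scaling by total count alone moved the median log2 fold change to -0.12 in transfected, -0.12 in siLuc and -0.10 in siStag3 cells. Leaving out each library gave 2 to 14 calls in transfected, 1 to 4 in siLuc, 1 to 7 in siStag3, 0 in siStag3 against siLuc and 17 to 26 between the sets. The shares of all genes called ran from 0.93% to 22.9% in transfected, 0.771% to 2.69% in siLuc and 0.542% to 11% in siStag3. They were at most 0.0277% in siStag3 against siLuc and 28.9% to 44% between the sets. The transfected medians then ran from -0.08 to -0.05, the siLuc ones from -0.10 to -0.05, the siStag3 ones from -0.10 to -0.03 and those of siStag3 against siLuc from 0.01 to 0.06. The transfected count was 2 without either untreated Set 1 library or without siStag3 Set 1 experiment 1. It was 3 without untreated Set 3 or siLuc Set 1 experiment 1, 4 without siStag3 Set 1 experiment 3 and 14 without siStag3 Set 3. Manba passed in each of these 9 fits, Hexa in 8, Ctsc in 6, and Laptm4b and Mcoln1 in 4 each, while Ctsa and Fuca1 lost the threshold in 8. Manba's adjusted p over the other alternatives ran from 8.62e-08 to 0.188, the latter without the set. None of the genes called in the main fit changed sign, nor did the median over all 40 genes in these comparisons. Lamp2, called in transfected cells only with the GC correction, did change sign, from 0.04 to -0.14. The medians of some groups of genes did with the GC correction: from 0.02 to -0.04 for membrane proteins, 0.03 to -0.03 for V-ATPase subunits, -0.05 to 0.05 for the transcription factors and Sqstm1, and -0.01 to 0.01 for the Rag and TFEB control genes in transfected cells. The cause of these shifts was not tested. Depth limited the rarest genes: Naglu, at 0.615 CPM in untreated cells, had an SE of 0.248 and Arsb, at 0.852 CPM, one of 0.238.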
